A study of Mus musculus with 48 samples.

Results

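Expression of 10 proteoglycan core protein genes was examined in the thoracic aorta of mice given β-aminopropionitrile (BAPN): the small leucine-rich proteoglycans Bgn, Dcn, Aspn, Lum, Fmod, Prelp and Ogn, and the large proteoglycans Vcan, Hspg2 and Cspg4. The genes were chosen by name, as 10 of the 18782 rows of a table of counts, and all 10 passed the filter on low counts that left 14431 genes for testing. Wild-type C57BL/6J mice, 3 weeks old at the start, drank normal water (MaCon, 10 males; FeCon, 10 females) or water with 0.4% BAPN for 28 days, and the BAPN mice were divided at the end into those without a detected lesion (MaNonAD, 4 males; FeNonAD, 8 females) and those with a dissection or an aneurysm (MaAAD, 7 males; FeAAD, 9 females). The GEO record describes this division as macroscopic and the methods describe NonAD as free of microscopically detectable lesions, so how far small lesions were looked for in NonAD mice is unsettled. BAPN inhibits lysyl oxidase, the enzyme that starts the cross-linking of collagen and elastin. Each of the 48 libraries came from the thoracic aorta of 1 mouse that survived to the end, so aortas that ruptured earlier are not represented. The ascending aorta, arch and proximal descending aorta were dissected, and the study's methods describe the RNA as taken from lesioned segments of it; how the segment was chosen in mice without a lesion is not given in the sources used here. The NonAD and AAD groups had the same treatment and were set by outcome.

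Proteoglycans are core proteins that carry sulfated sugar chains. The small leucine-rich members bind along collagen fibrils and govern their diameter and spacing, and several of them also bind growth factors of the TGF-β family. Versican, the product of Vcan, holds hyaluronan and water in the arterial media and intima; perlecan, encoded by Hspg2, is a heparan sulfate proteoglycan of basement membranes; and NG2, encoded by Cspg4, sits on the surface of mural cells. The comparisons below ask how each core protein transcript differed with BAPN, with a lesion and between the sexes.

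Library totals ran from 13548000 to 17281273 counts, and the lowest count of any of the 10 genes in any library was 225, so counting error was small beside the spread between mice. Levels are given as CPM, read counts scaled to a common library size by the TMM method. All 9 smooth muscle markers were detected in every group and were lower in both AAD groups than in the controls of the same sex, with summed levels of 31103 to 52952 CPM in FeCon, 14011 to 32152 CPM in FeAAD, 28263 to 60668 CPM in MaCon and 11925 to 29878 CPM in MaAAD. All 9 macrophage markers were higher in both, with sums of 277 to 660.2 CPM in FeCon, 661 to 5883 CPM in FeAAD, 231 to 592 CPM in MaCon and 875 to 3893 CPM in MaAAD. Of 9 fibroblast markers, 2 were higher and 4 lower in FeAAD, and 3 were higher and 2 lower in MaAAD, which is 66.7% and 55.6% of them, where 44.4% and 35.0% of all genes were called. The rises included the collagen genes Col1a1 (log2 fold change 1.28 in FeAAD and 1.14 in MaAAD) and Col3a1 (1.14 and 1.00), while Gsn was lower (-1.29 and -0.90). In bulk tissue, fewer cells of a type and less RNA per cell cannot be told apart, and the part of these cell types in the results below was not tested.

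Libraries FeAAD5, FeAAD9 and MaAAD7 stood apart. Their neutrophil markers summed to 888, 202 and 241 CPM, against at most 10.7 CPM in any control. FeAAD5 had the lowest FeAAD level of Bgn, Prelp, Hspg2 and Cspg4 and the highest of Vcan; FeAAD9 had the lowest of Dcn, Lum, Fmod, Ogn and Aspn; and MaAAD7 had the lowest MaAAD level of Bgn, Dcn, Fmod, Ogn, Prelp and Aspn. Results for AAD are given with and without these 3 libraries for the members called and where the call, the sign or the size differed. A further library, MaAAD1, had the lowest MaAAD level of Vcan, Hspg2 and Cspg4 and the lowest smooth muscle sum of its group, 11925 CPM. Its adipocyte markers summed to 6906 CPM, against 393 to 1333 CPM in the other MaAAD mice, and its chondrocyte sum of 444 CPM was the highest of the group.

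Per kilobase of exon, control aortas held far more biglycan transcript than any other of the 10. The median level of Bgn in FeCon was 1581 CPM per kb (range 1287 to 1936), followed by Prelp at 407, Ogn at 293, Dcn at 276, Hspg2 at 138, Lum at 119, Cspg4 at 64.5, Aspn at 60.7, Fmod at 45.4 and Vcan at 9.32 CPM per kb. The ranges of Ogn (191 to 428 CPM per kb) and Dcn (222 to 360.2 CPM per kb) overlapped, so the order of these neighbours was within their spread, as was that of Hspg2 (120.2 to 185 CPM per kb) and Lum (81.9 to 143 CPM per kb). MaCon had the same first 7 genes in the same order, with Bgn at 1619, Lum at 86.2 and Vcan at 6.92 CPM per kb. With the length of the longest transcript in place of all exons, Dcn (343 CPM per kb in FeCon) came ahead of Ogn, and Bgn was at 3617 CPM per kb. In AAD aortas lumican moved up this order: its median was 226 CPM per kb in FeAAD and 279 CPM per kb in MaAAD, where Ogn was at 177 and 126 CPM per kb.

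**Figure D1:**
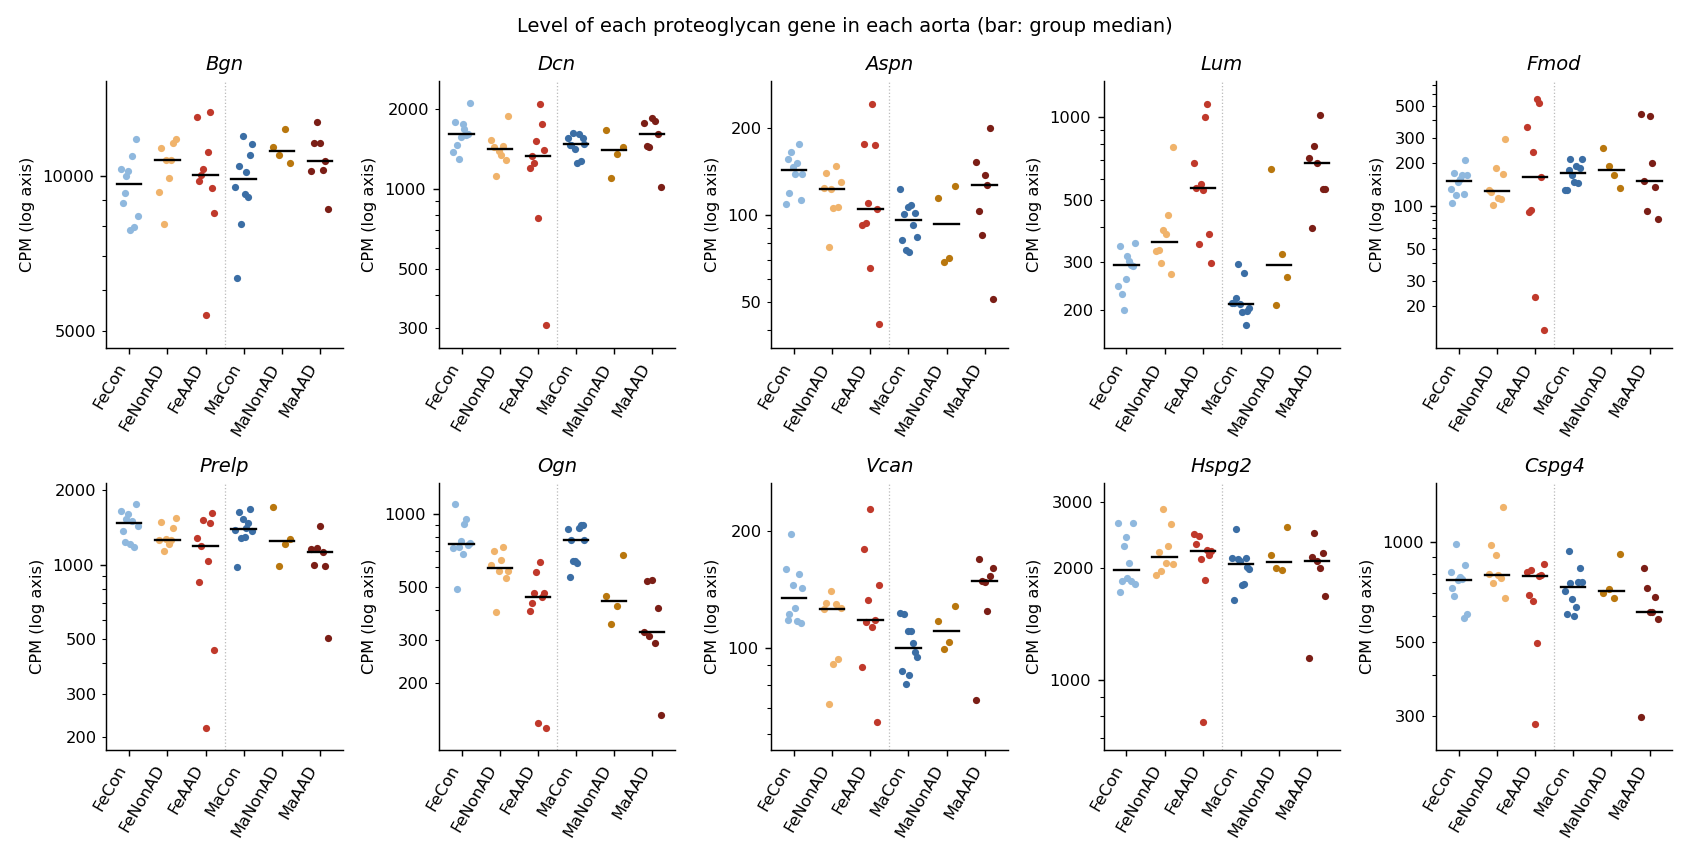
Level of each of the 10 genes in each of the 48 libraries, in CPM on a log axis, by group; points are mice and bars are group medians. Lum sits higher and Ogn lower in both AAD groups than in the controls, Fmod spreads from 13.6 to 562 CPM in FeAAD, and Bgn and Hspg2 stay within overlapping ranges.

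In aortas with a lesion, lumican transcript rose and osteoglycin transcript fell in both sexes. Versican was called higher in males, a call that some alternatives ended. Of the 10 members, 2 were called in FeAAD against FeCon (1 higher, 1 lower), where 44.4% of all genes were called, 23.8% as higher and 20.6% as lower. In MaAAD against MaCon, 3 were called (2 higher, 1 lower), where 35.0% of all genes were called, 18.9% as higher and 16.1% as lower. The members thus held no larger share of calls than the transcriptome, and their median log2 fold change was -0.11 in FeAAD and 0.12 in MaAAD, beside 0.00 and -0.03 over all genes. Of all calls, 53.6% were higher in FeAAD and 53.9% in MaAAD; with libraries scaled by total counts, the shares were 64.7% and 66.8%. By the DEG rule, which also asks for a doubling or a halving, Lum passed in FeAAD (12.7% of all genes), and Lum and Ogn passed in MaAAD (11.4% of all genes).

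**Figure D2:**
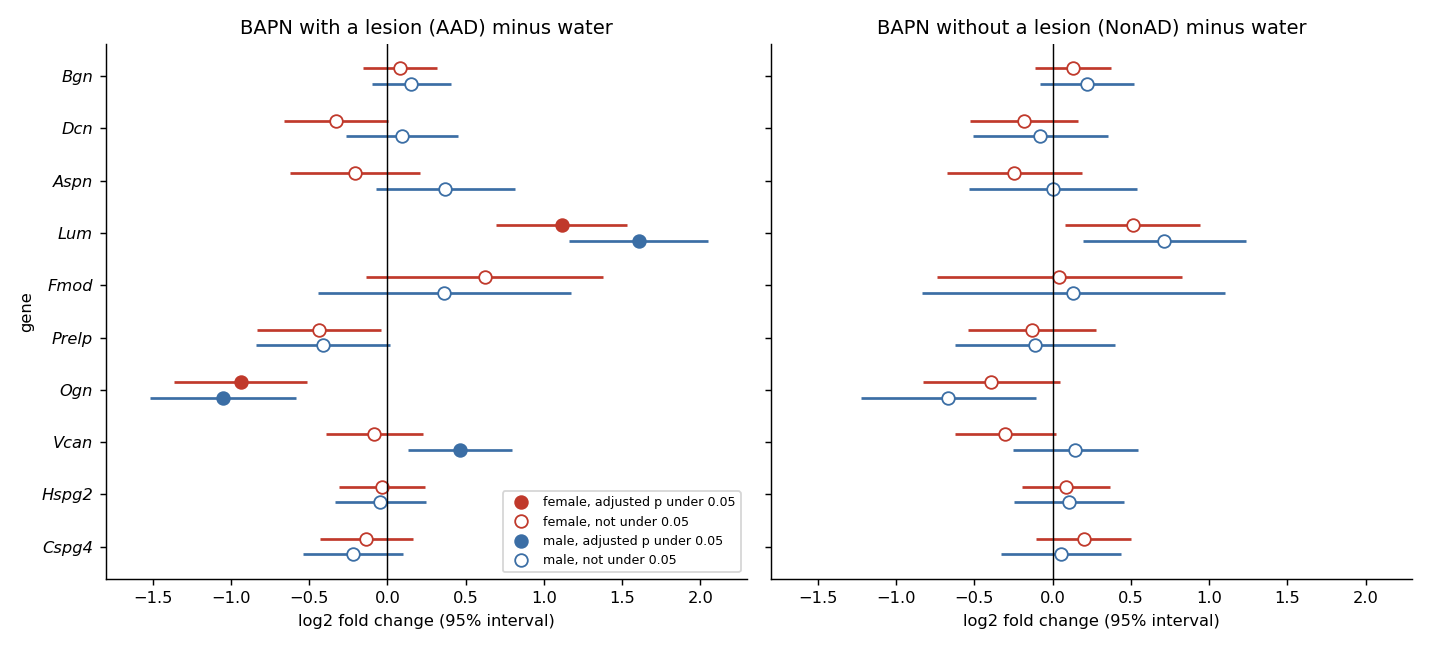
Log2 fold change and its 95% interval for each of the 10 genes, females in red and males in blue, for AAD against water (left) and NonAD against water (right); filled circles passed an adjusted p of 0.05. Lum lies to the right and Ogn to the left of 0 in both sexes in AAD, Vcan is filled in males alone, and no circle is filled in NonAD.

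Lumican is a keratan sulfate proteoglycan that binds collagen fibrils and regulates their assembly. In FeCon, Lum ran from 200.4 to 351 CPM with a median of 291 CPM; in FeAAD it ran from 296 to 1122 CPM with a median of 553 CPM. In MaCon it ran from 177 to 295 CPM (median 211 CPM), and in MaAAD from 396 to 1019 CPM (median 684 CPM). Of the 9 FeAAD mice, 7 lay above every FeCon mouse, and all 7 MaAAD mice lay above every MaCon mouse; FeAAD9, at 296 CPM, and FeAAD3, at 347 CPM, lay within the female control range. The log2 fold change was 1.11 for females (SE 0.21, 95% interval 0.69 to 1.53, adjusted p = 2.58e-05) and 1.61 for males (SE 0.22, interval 1.16 to 2.05, adjusted p = 2.16e-07) by edgeR's quasi-likelihood test. Without the 3 libraries with neutrophil markers the values were 1.24 (adjusted p = 1.04e-05) and 1.65 (adjusted p = 1.17e-07). The difference between the sexes in this response was 0.49 (interval -0.12 to 1.11, adjusted p = 0.443) and was not called.

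In NonAD mice, the Lum medians lay between those of the controls and the AAD mice. FeNonAD ran from 269.7 to 782 CPM with a median of 353 CPM, and 4 of 8 mice lay above every FeCon mouse. The 4 MaNonAD mice had 649.7, 209, 319 and 265 CPM, of which 2 exceeded every MaCon mouse and 1 was near the MaCon median. The log2 fold changes were 0.51 for females (SE 0.21, adjusted p = 0.0992) and 0.71 for males (SE 0.26, adjusted p = 0.212), neither of which was called by edgeR. Each leaned on its highest mouse: without FeNonAD8 the female value was 0.30 (adjusted p = 0.354), and without MaNonAD1 the male value was 0.26 (adjusted p = 0.911). These mice had the lowest smooth muscle sums (26040 and 21106 CPM) and the highest macrophage (999 and 882 CPM) and chondrocyte sums (272 and 194 CPM) of their groups, and the part of this in Lum was not tested. No member was called in either comparison, where 14.5% of all genes were called in FeNonAD and 0.624% in MaNonAD. At an unadjusted p below 0.05 there were Lum in females (p = 0.0207) and Lum and Ogn in males (p = 0.00843 and p = 0.0205, edgeR). Of the 14431 tested genes, 4172 in FeNonAD and 1734 in MaNonAD passed that unadjusted limit. DESeq2 called 0 members in both as well. An edgeR fit of the compared groups alone called 2 in FeNonAD, Lum (0.52, adjusted p = 0.0407) and Ogn (-0.39, adjusted p = 0.0468).

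Lum was also higher in FeAAD than in FeNonAD, by 0.60 on the log2 scale (SE 0.22, interval 0.16 to 1.05, adjusted p = 0.0498, edgeR), as the single member called where 18.2% of all genes were, 13.2% as higher. This call was at the threshold. It was lost in 12 of 17 fits that left out 1 library (FeNonAD replicates 1 to 7 and FeAAD replicates 1, 2, 5, 6 and 7), in which the log2 fold change reached 0.45 (adjusted p = 0.152) without FeAAD7. Without the 3 libraries with neutrophil markers it was 0.73 (adjusted p = 0.0341) and was called. In MaAAD against MaNonAD the difference was 0.90 (SE 0.29, interval 0.31 to 1.48, adjusted p = 0.0798), and no member was called by edgeR where 0.409% of all genes were. Lum was the single member at an unadjusted p below 0.05 (p = 0.00371, edgeR), where 2694 of the 14431 tested genes were. It was called by DESeq2 (0.91, adjusted p = 0.0350), without MaNonAD1 (1.34, adjusted p = 0.0224) and without MaAAD2 (0.99, adjusted p = 0.0479). The AAD, NonAD and Con groups of a sex share libraries across these comparisons, so the values do not count as separate evidence.

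Osteoglycin, the product of Ogn, is a small proteoglycan of connective tissue that influences collagen fibril formation. Ogn ran from 490.1 to 1098 CPM in FeCon (median 752 CPM) and from 130.3 to 630.4 CPM in FeAAD (median 453 CPM). In males it ran from 545 to 901 CPM in MaCon (median 777 CPM) and from 148 to 534 CPM in MaAAD (median 323 CPM). Of the 9 FeAAD mice, 7 lay below every FeCon mouse, and all 7 MaAAD mice lay below every MaCon mouse. Lum and Ogn were the 2 of 10 members whose MaAAD and MaCon ranges did not overlap, which held for 8.91% of all genes; in females no member met this, against 4.89% of all genes. The log2 fold change was -0.94 for females (SE 0.21, interval -1.36 to -0.51, adjusted p = 0.000325) and -1.05 for males (SE 0.23, interval -1.52 to -0.59, adjusted p = 0.000306) by edgeR.

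FeAAD9, FeAAD5 and MaAAD7 held the 3 lowest Ogn levels of all AAD mice, 130.3, 136 and 148 CPM. Without them Ogn was lower by -0.68 for females (adjusted p = 0.000288) and -0.91 for males (adjusted p = 1.13e-05, both edgeR). In FeNonAD, Ogn ran from 394 to 727 CPM (median 599 CPM), and all 8 mice lay below the FeCon median. The 4 MaNonAD mice had 458, 349, 416 and 674 CPM, and 3 of them lay below every MaCon mouse. The log2 fold changes were -0.39 (SE 0.22, adjusted p = 0.226) for females and -0.67 (SE 0.28, adjusted p = 0.293) for males and were not called by edgeR. From NonAD to AAD the differences were -0.55 (adjusted p = 0.0767) for females and -0.38 (adjusted p = 0.489) for males. The male value was -0.17 (adjusted p = 0.818) without MaNonAD4 and -0.25 (adjusted p = 0.551) without the 3 libraries with neutrophil markers. In females this difference was called without FeAAD4 (-0.62, adjusted p = 0.0438) and without FeAAD6 (-0.65, adjusted p = 0.0414). It was -0.43 without FeAAD5 (adjusted p = 0.191) or FeAAD9 (adjusted p = 0.157), and -0.29 (adjusted p = 0.294) without the 3 libraries with neutrophil markers, by edgeR.

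Ogn sits in a run of related genes on chromosome 13, in the order Ecm2, Aspn, Omd and Ogn. Omd encodes osteomodulin, a keratan sulfate proteoglycan of mineralised tissue, and Ecm2 encodes a leucine-rich matrix protein. Omd had a median of 38.4 CPM in FeCon, 17.0 CPM in FeAAD, 33.5 CPM in MaCon and 14.6 CPM in MaAAD, with log2 fold changes of -1.26 (SE 0.26, adjusted p = 8.35e-05) and -0.99 (SE 0.28, adjusted p = 0.00434). Ecm2 was lower by -0.86 (adjusted p = 0.0011) for females and -0.96 (adjusted p = 0.00108) for males, all by edgeR. Aspn, which lies between them, was not called in either sex. It was called higher in males without the 3 libraries with neutrophil markers (0.51, adjusted p = 0.0235, edgeR). Omd and Ecm2 were lowest in FeAAD5 (3.31 and 31.6 CPM) and MaAAD7 (5.07 and 62.5 CPM) of their groups. Their fold changes without those libraries are not given here. The 250 bases before the start of these 4 genes are shown because 3 of the genes fell together and 1 did not. They are RefSeq sequences of build GRCm38.p6 on the + strand, matched by symbol, and stand at chr13:49504560-49504809 (Ecm2), chr13:49544193-49544442 (Aspn), chr13:49582212-49582461 (Omd) and chr13:49607765-49608014 (Ogn). The counts were made on GRCm39, and no coordinate was carried between the builds. Capitals mark matches on either strand to 5 short motifs, TATAAA (the TATA box), CCAAT (the CCAAT box), GGGCGG (the GC box), TGANTCA (bound by AP-1) and GGAATG (bound by TEAD factors).
Ecm2: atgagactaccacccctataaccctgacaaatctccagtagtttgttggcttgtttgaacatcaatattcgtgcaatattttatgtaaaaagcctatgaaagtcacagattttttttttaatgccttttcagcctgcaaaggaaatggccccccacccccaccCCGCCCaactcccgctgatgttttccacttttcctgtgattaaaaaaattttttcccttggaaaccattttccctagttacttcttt
Aspn: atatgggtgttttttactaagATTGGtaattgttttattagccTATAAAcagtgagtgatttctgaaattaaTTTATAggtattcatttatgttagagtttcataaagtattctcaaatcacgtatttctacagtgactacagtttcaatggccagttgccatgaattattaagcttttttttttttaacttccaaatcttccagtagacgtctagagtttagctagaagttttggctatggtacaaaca
Omd: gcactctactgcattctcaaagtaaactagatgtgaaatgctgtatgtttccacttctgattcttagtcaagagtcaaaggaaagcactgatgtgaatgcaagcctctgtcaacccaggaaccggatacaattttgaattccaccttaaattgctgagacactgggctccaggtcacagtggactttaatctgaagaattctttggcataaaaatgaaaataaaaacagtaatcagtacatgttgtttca
Ogn: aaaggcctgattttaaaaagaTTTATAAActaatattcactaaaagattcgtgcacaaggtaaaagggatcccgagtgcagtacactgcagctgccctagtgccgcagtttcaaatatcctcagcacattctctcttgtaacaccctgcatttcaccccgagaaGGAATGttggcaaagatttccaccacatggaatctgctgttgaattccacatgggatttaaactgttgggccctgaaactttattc

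The Ogn window holds TATAAA on both strands, in overlapping positions 229 to 222 bases before the start, and GGAATG 86 to 81 bases before it. The Aspn window holds TATAAA on both strands and CCAAT on the opposite strand, the Ecm2 window holds GGGCGG on the opposite strand, and the Omd window holds none of the 5. In 32851 promoter windows of this length, TATAAA was present in 12.4%, CCAAT in 33.8%, GGGCGG in 32.7%, TGANTCA in 6.75% and GGAATG in 12.6%. The windows were 40.0% (Ecm2), 30.0% (Aspn), 38.4% (Omd) and 42.0% (Ogn) G or C. No motif was shared by Ecm2, Omd and Ogn.

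**Figure D3:**
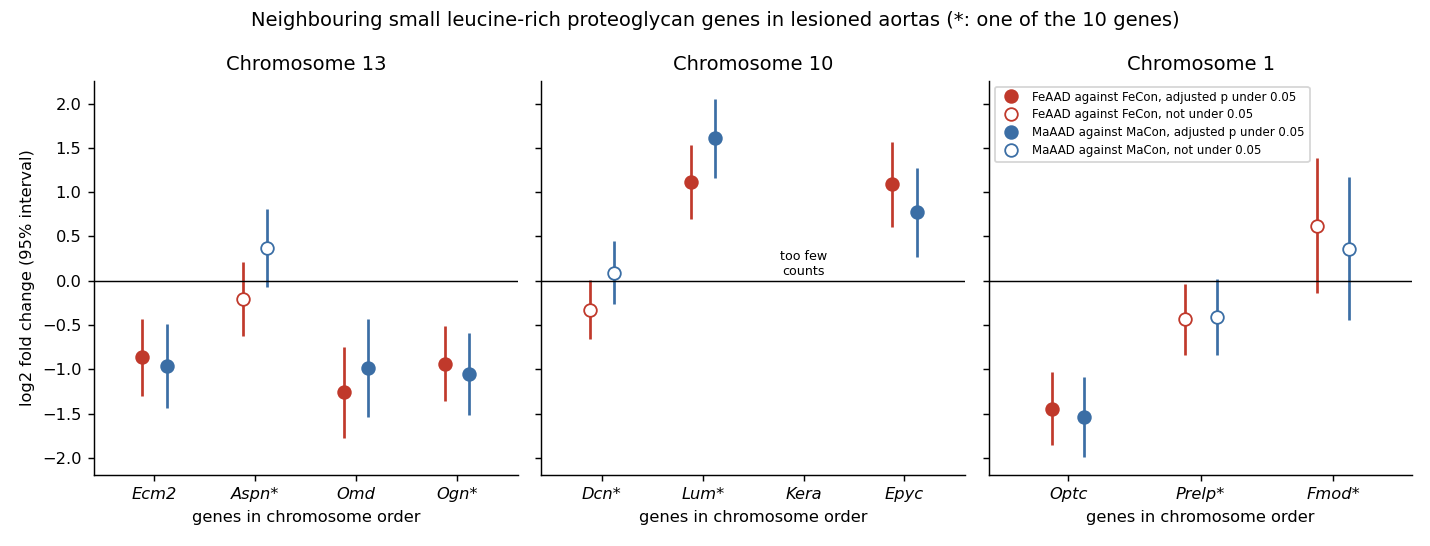
Log2 fold change with its 95% interval for neighbouring small leucine-rich proteoglycan genes on chromosomes 13, 10 and 1, in FeAAD against FeCon (red) and MaAAD against MaCon (blue); filled circles passed an adjusted p of 0.05 and an asterisk marks the 10 genes of interest. On chromosome 13, Ecm2, Omd and Ogn are filled and below 0 while Aspn is open, at -0.21 and 0.37; on chromosome 10, Lum and Epyc lie above 0 beside Dcn.

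The other runs also held genes that differed from their neighbours. On chromosome 10 the order is Dcn, Lum, Kera and Epyc. Epyc, which encodes epiphycan of growth cartilage, was higher by 1.09 in FeAAD (SE 0.24, adjusted p = 0.000205) and by 0.77 in MaAAD (SE 0.25, adjusted p = 0.0137), whereas Dcn, next to Lum, was at -0.33 and 0.09 and was not called. Kera, the keratocan gene, averaged 0.271 counts per library and was not tested. On chromosome 1, where Optc, Prelp and Fmod are neighbours, Optc (opticin) was lower by -1.44 in FeAAD (adjusted p = 2.00e-07) and by -1.54 in MaAAD (adjusted p = 5.24e-07), and neither Prelp nor Fmod was called (edgeR for all).

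Decorin, biglycan and asporin are the class I small leucine-rich proteoglycans; the first 2 carry chondroitin or dermatan sulfate chains, and decorin is named for its decoration of collagen fibrils. Bgn ran from 7852 to 11805 CPM in FeCon and from 5365 to 13325 CPM in FeAAD, and from 6318 to 12009.5 CPM in MaCon and 8644 to 12789 CPM in MaAAD. Its log2 fold change was 0.08 (interval -0.16 to 0.32, adjusted p = 0.611) for females and 0.15 (interval -0.10 to 0.40, adjusted p = 0.365) for males by edgeR. Dcn had a median of 1609 CPM in FeCon and 1331 CPM in FeAAD, with a range of 309 to 2093 CPM in FeAAD, and of 1471 CPM in MaCon and 1615 CPM in MaAAD. Its log2 fold change was -0.33 (interval -0.66 to 0.01, adjusted p = 0.106) for females and 0.09 (interval -0.26 to 0.45, adjusted p = 0.72) for males. The female value was called without FeAAD6, the mouse with the highest Dcn of its group (-0.44, adjusted p = 0.0264, edgeR). It was -0.20 (adjusted p = 0.204) without FeAAD9 and -0.11 (adjusted p = 0.442) without the libraries with neutrophil markers, where the male value was 0.18 (adjusted p = 0.215). Bgn was then at 0.21 (adjusted p = 0.112) in FeAAD.

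Asporin binds collagen and TGF-β. Aspn ran from 109 to 176 CPM in FeCon (median 143 CPM) and from 74.6 to 123 CPM in MaCon (median 96.3 CPM), and 9 of 10 MaCon mice lay below every FeCon mouse. It was lower in MaCon than in FeCon by -0.58 on the log2 scale (SE 0.20, interval -0.98 to -0.17, adjusted p = 0.0459, edgeR). That call was lost in 13 of 20 leave-one-out fits, those without MaCon replicates 2, 4, 6, 8, 9 or 10 or FeCon replicates 2, 4, 5, 6, 7, 8 or 10, where the adjusted p reached 0.0794, and with total counts (adjusted p = 0.0592), no filter on low counts (adjusted p = 0.0548) or the replicate block (adjusted p = 0.0567). In FeAAD, Aspn spread from 41.7 to 243 CPM, with 2 mice above and 5 below every FeCon mouse, and the log2 fold change was -0.21 (adjusted p = 0.434). In MaAAD it spread from 51.1 to 200.4 CPM, with 4 of 7 mice above every MaCon mouse, and was 0.37 (adjusted p = 0.193). Without the 3 libraries with neutrophil markers the male value was called (0.51, adjusted p = 0.0235) and the female value was 0.0071. Leaving out 1 library took the male value from 0.21 (without MaAAD6) to 0.50 and the female value from -0.40 to -0.095. The difference between the sexes in the AAD response was 0.58 (interval -0.03 to 1.19, adjusted p = 0.352) and was not called.

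Fibromodulin competes with lumican for sites on collagen, and PRELP links basement membrane to the matrix beneath it. Fmod was the most scattered of the 10 genes in AAD. Mice above every control in Fmod had the highest chondrocyte marker sums of their groups. In FeCon it ran from 104 to 211 CPM (median 150.0 CPM), and in FeAAD from 13.6 to 562 CPM (median 158 CPM), with 4 of 9 mice above every FeCon mouse and 4 below. In MaCon it ran from 129 to 212 CPM and in MaAAD from 81.5 to 441 CPM, with 2 of 7 mice above and 2 below every control. The log2 fold change was 0.62 (SE 0.38, interval -0.14 to 1.38, adjusted p = 0.182) for females and 0.36 (SE 0.40, interval -0.45 to 1.17, adjusted p = 0.511) for males by edgeR. Without the 3 libraries with neutrophil markers, of which FeAAD9 and FeAAD5 held the 2 lowest levels (13.6 and 23.3 CPM), the female value was called (0.96, adjusted p = 0.00732) and the male value was not (0.51, adjusted p = 0.201). The chondrocyte sums were 758, 517, 461 and 240 CPM in FeAAD6, FeAAD7, FeAAD1 and FeAAD4, the 4 mice above every FeCon mouse in Fmod, and 58.5 to 84.7 CPM in the 4 below; in MaAAD1 and MaAAD4, the 2 males above, they were 444 and 342 CPM. At the low end the males differed: MaAAD7, the lowest in Fmod, had a sum of 168 CPM, above the highest MaCon sum of 131 CPM. MaAAD2 had the lowest sum of its group, 65.1 CPM, and was not the lowest in Fmod. The part of chondrocytes in the Fmod values was not tested. Single mice moved both values the other way: the female value was 0.33 (adjusted p = 0.501) without FeAAD6 and 0.38 (adjusted p = 0.451) without FeAAD7, and the male value was 0.11 (adjusted p = 0.856) without MaAAD1 and 0.12 (adjusted p = 0.859) without MaAAD4, by edgeR.

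Within a library, the ratio of Fmod to Lum compares these class II genes without any scaling. In MaAAD Lum rose by 1.61 and Fmod was not called (0.36, adjusted p = 0.511, edgeR). The male ratio comes from the same libraries, so it is not separate evidence from the Lum call. In MaCon the log2 ratio of counts ran from -0.72 to 0.06, and in MaAAD from -3.08 to -0.69, with a mean of -0.38 ± 0.24 (SD, n = 10) and -1.86 ± 0.95 (SD, n = 7). Every MaAAD mouse lay below the MaCon mean, and the difference of -1.47 had an adjusted p of 0.0074 over 12 comparisons (two-sided exact permutation test, p = 0.000617). It ran from -1.67 to -1.27 when 1 library at a time was left out and was -1.32 (adjusted p = 0.018) without MaAAD7. Pairing mice of the same number gave -1.35 (adjusted p = 0.125, exact sign-flip test), where 7 pairs set a floor on the p-value. In FeAAD against FeCon the difference was -1.16 (exact permutation test, adjusted p = 0.0717; 8 of 9 mice below the FeCon mean), and -0.48 (adjusted p = 0.124) without FeAAD5 and FeAAD9. In NonAD mice it was -0.47 for females (adjusted p = 0.0717; 7 of 8 below) and -0.47 for males (adjusted p = 0.0919; 3 of 4 below) by the exact permutation test, with the 4 MaNonAD ratios at -1.36, -0.13, -0.95 and -0.98. Without MaNonAD2, whose ratio was the highest, the male difference was -0.72 (adjusted p = 0.042, exact permutation test).

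**Figure D4:**
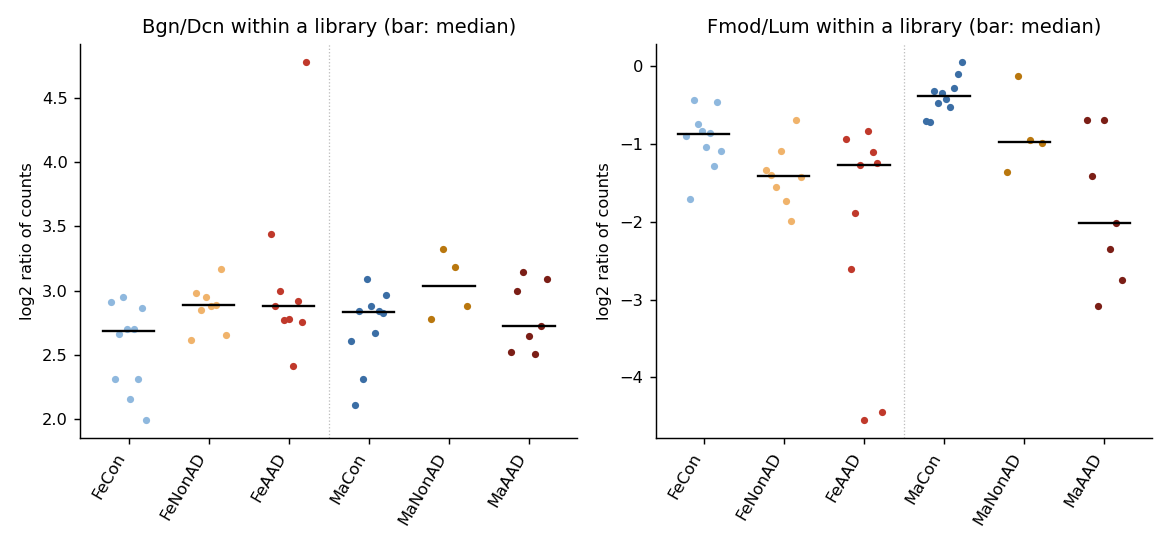
Log2 ratio of counts within each library for Bgn to Dcn (left) and Fmod to Lum (right), by group; points are mice and bars are medians. The Fmod to Lum ratio of MaAAD mice (-3.08 to -0.69) lies almost entirely below that of MaCon mice (-0.72 to 0.06), and 1 FeAAD mouse stands apart at a Bgn to Dcn ratio of 4.78.

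The ratio of Bgn to Dcn passed no test. Its FeCon log2 mean of 2.56 ± 0.34 (SD, n = 10) stood beside FeNonAD and FeAAD means of 2.87 ± 0.18 (n = 8) and 3.08 ± 0.69 (n = 9). For males the MaCon mean was 2.72 ± 0.30 (n = 10), with MaNonAD at 3.04 ± 0.26 (n = 4) and MaAAD at 2.81 ± 0.27 (n = 7). The ratio lay above the control mean in 8 of 8 FeNonAD mice, 4 of 4 MaNonAD mice, 8 of 9 FeAAD mice and 4 of 7 MaAAD mice. The differences from Con were 0.32, 0.33, 0.52 and 0.09, with adjusted p of 0.0717, 0.113, 0.0717 and 0.54 (two-sided exact permutation tests). Without FeAAD5 and FeAAD9 the FeAAD difference was 0.33 (adjusted p = 0.124, exact permutation test).

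Prelp had the second highest level per kilobase. Its median was 1472 CPM in FeCon, 1187 CPM in FeAAD, 1396 CPM in MaCon and 1128 CPM in MaAAD. Of the FeAAD mice 4 of 9 lay below every FeCon mouse, and of the MaAAD mice 1 of 7, and all others overlapped the controls. The log2 fold change was -0.44 (interval -0.83 to -0.04, adjusted p = 0.0669) for females and -0.41 (interval -0.84 to 0.02, adjusted p = 0.131) for males by edgeR. The female value was called without FeAAD4 (-0.51, adjusted p = 0.0355), FeAAD7 (-0.49, adjusted p = 0.0487) or FeAAD8 (-0.53, adjusted p = 0.0274). It was smaller without FeAAD5 (-0.30, adjusted p = 0.127) or FeAAD9 (-0.34, adjusted p = 0.152), and without the libraries with neutrophil markers it was -0.18 (adjusted p = 0.229, edgeR) and the male value was -0.29 (adjusted p = 0.062). Of its 3615 exon bases, 350 overlap a gene on the opposite strand; the libraries were strand-specific, and whether counting used the strand is not given in the sources used here.

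Among the large proteoglycans, versican differed between the sexes in the control mice. Vcan ran from 116 to 197 CPM in FeCon (median 135 CPM) and from 80.6 to 123 CPM in MaCon (median 100.04 CPM), and 8 of 10 MaCon mice lay below every FeCon mouse. The log2 difference was -0.47 (SE 0.15, interval -0.77 to -0.16, adjusted p = 0.0312, edgeR). Vcan and Aspn were the 2 of 10 members called between the control groups, both lower in males, where 14.3% of all genes were called and 7.9% as lower. The Vcan call was lost without MaCon4 (-0.43, adjusted p = 0.0572), MaCon6 (-0.45, adjusted p = 0.0503), FeCon4 (-0.40, adjusted p = 0.0740) or FeCon8 (-0.45, adjusted p = 0.0508). It was also lost with the replicate block (-0.45, adjusted p = 0.0558, edgeR). On BAPN Vcan was not called between the sexes, at -0.02 in MaNonAD against FeNonAD and 0.08 in MaAAD against FeAAD.

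In MaAAD, Vcan ran from 73.2 to 169.7 CPM with a median of 149 CPM. Of these 7 mice, 6 lay above every MaCon mouse, and MaAAD1 lay below every MaCon mouse. In FeAAD it ran from 64.3 to 228 CPM with a median of 118 CPM, with 1 of 9 mice above and 3 below every FeCon mouse. Vcan rose in males by 0.46 on the log2 scale (SE 0.16, interval 0.13 to 0.80, adjusted p = 0.0239) and was at -0.08 for females (SE 0.15, interval -0.40 to 0.23, adjusted p = 0.688) by edgeR. The male call was lost without MaAAD2 (0.41, adjusted p = 0.0586) or MaAAD7 (0.43, adjusted p = 0.0561) and with the replicate block (0.43, adjusted p = 0.0641, edgeR). It held without the 3 libraries with neutrophil markers (0.43, adjusted p = 0.0314), where the female value was -0.27 (adjusted p = 0.169). The difference between the sexes in this response was 0.55 (interval 0.09 to 1.00, adjusted p = 0.213) and was not called. The 4 MaNonAD mice had 117, 99.5, 103 and 128 CPM, of which 1 exceeded every MaCon mouse, and FeNonAD ran from 71.7 to 140.0 CPM. Neither NonAD difference was called, at 0.14 (adjusted p = 0.844) for males and -0.30 (adjusted p = 0.206) for females.

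Perlecan and NG2 transcripts were not called in any comparison. Hspg2 had medians of 1973 CPM in FeCon, 2227 CPM in FeAAD, 2049 CPM in MaCon and 2083 CPM in MaAAD, and FeAAD5, at 769 CPM, was the lowest of all 48 mice. Its log2 fold changes were -0.04 (interval -0.31 to 0.24, adjusted p = 0.854) in FeAAD and -0.04 (interval -0.34 to 0.25, adjusted p = 0.843) in MaAAD, with the sign turned by total counts (0.047 and 0.029). Cspg4 had medians of 769 CPM in FeCon, 791 CPM in FeAAD, 732 CPM in MaCon and 618 CPM in MaAAD. It was at -0.13 (interval -0.43 to 0.16, adjusted p = 0.488) for females and -0.22 (interval -0.54 to 0.10, adjusted p = 0.288) for males (edgeR). The female value was -0.064 without the 3 libraries with neutrophil markers and -0.031 without FeAAD5 alone, and without MaAAD1 the male value was -0.086. In FeAAD against FeNonAD Cspg4 was at -0.33 (interval -0.65 to -0.02, adjusted p = 0.133, edgeR).

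Between males and females on BAPN no member was called, either in MaNonAD against FeNonAD, where 0.0624% of all genes were called, or in MaAAD against FeAAD, where 0.0901% were (edgeR). At an unadjusted p below 0.05 there were 0 members in both, where 934 and 321 of the 14431 tested genes were, and DESeq2 called 0. The differences in MaAAD against FeAAD ran from -0.17 (Ogn, interval -0.64 to 0.29) to 0.27 (Dcn, interval -0.09 to 0.64). No member was called for a sex difference in the response to BAPN without a lesion (0.416% of all genes), in the response with a lesion (1.34% of all genes) or in the step from NonAD to AAD (0.0% of all genes by edgeR, with 150 genes at an unadjusted p below 0.05 and 1 gene called by DESeq2). At an unadjusted p below 0.05, Vcan in the response with a lesion was the single member (p = 0.0192, edgeR). Of the 14431 tested genes, 2220 passed that limit in the response with a lesion and 1752 in the response without one.

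The genes beside these 10 in the same families and pathways were counted from lists, whose called shares are set beside the 44.4% (FeAAD), 35.0% (MaAAD) and 14.5% (FeNonAD) of all genes. Of 9 tested other small leucine-rich proteoglycans and relatives, 2 rose and 4 fell in FeAAD, and 2 rose and 5 fell in MaAAD, which is 66.7% and 77.8% of them, with medians of -0.43 and -0.78; in FeNonAD 1 fell and in MaNonAD none was called. The rises included Tsku (tsukushi), at 1.48 in MaAAD (adjusted p = 4.37e-07), and the falls Nyx (nyctalopin) at -1.20 in MaAAD (adjusted p = 3.58e-05). Of 15 other large and basement membrane proteoglycans, 2 rose and 4 fell in FeAAD (40.0%), and 2 rose and 3 fell in MaAAD (33.3%), shares near those of all genes; in FeNonAD 3 were higher and 1 lower (26.7%). Aggrecan, the cartilage relative of versican, was one of those that rose: Acan had medians of 59.7 CPM in FeCon, 146 CPM in FeNonAD and 225 CPM in FeAAD, and 64.8 CPM in MaCon, 147 CPM in MaNonAD and 171 CPM in MaAAD. Its log2 fold change was 1.55 in FeAAD (adjusted p = 2.83e-09) and 1.40 in MaAAD (adjusted p = 1.17e-07), and unlike Vcan it was also called in FeNonAD (1.02, adjusted p = 0.000149) and MaNonAD (1.22, adjusted p = 0.000988). Prg4, the lubricin gene, was higher by 2.63 in FeAAD and 4.89 in MaAAD, Spock2 lower by -1.76 in FeAAD and Ptprz1 lower by -1.47 in MaAAD. Hapln1, which encodes a link protein and neighbours Vcan on chromosome 13, was at 0.05 and 0.30 and was not called. Of 6 tested chondrocyte markers, 4 were higher in FeAAD and 3 in MaAAD, where 1 was lower, with sums of 61.8 to 104 CPM in FeCon, 58.5 to 758 CPM in FeAAD, 63.0 to 131 CPM in MaCon and 65.1 to 444 CPM in MaAAD; their part in the values of Acan, Epyc and Prg4 was not tested.

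Of 16 tested cell surface and other proteoglycans, 8 rose and 3 fell in FeAAD (68.8%), and 8 rose and 2 fell in MaAAD (62.5%), and 4 were higher and 1 lower in FeNonAD (31.2%). In MaNonAD 2 were higher (12.5%, where 0.624% of all genes were called), Esm1 and Sdc3. Esm1 (endocan, of endothelial cells) was higher by 4.45 and 4.40, the syndecan Sdc3 by 1.99 and 2.10, and Cd74, the class II invariant chain, by 1.54 and 1.60. Of 26 enzymes of the linker and of chondroitin or dermatan sulfate chains, 15 rose and 1 fell in FeAAD (61.5%). In MaAAD 8 rose and none fell (30.8%), where 35.0% of all genes were called and 18.9% as higher. In FeNonAD 8 were higher and 1 lower (34.6%), and none was called in MaNonAD. The chondroitin sulfotransferase Chst11 was higher by 1.46 and 1.28 and the synthase Chsy1 by 0.96 and 0.87; Pxylp1, a phosphatase of the linker, was higher by 1.03 in FeAAD and Ugdh, which makes the glucuronic acid precursor, by 0.64 in MaAAD. Of 17 heparan sulfate enzymes, 5 rose in each sex and 1 fell in FeAAD (35.3% and 29.4%). The FeAAD share was below the 44.4% of all genes. All 5 MaAAD calls were higher, where 35.0% of all genes were called and 18.9% as higher. In FeNonAD 5 were higher and 1 lower (35.3%). The rises included Hs6st2 (2.28 and 1.65), Hs2st1 (0.80 and 0.66) and the sulfatase Sulf1 (0.59 and 0.59). Of 11 keratan sulfate enzymes, which build the chains of lumican, fibromodulin and osteomodulin, 5 rose in FeAAD (45.5%), and 4 rose and 1 fell in MaAAD (45.5%), and 3 were higher in FeNonAD (27.3%). B3gnt7 was higher by 1.48 and 1.94, Chst2 by 0.79 and B3gnt2 by 0.51 in FeAAD, and St3gal1 by 0.79 and B4galt1 by 0.72 in MaAAD. Of 25 genes of proteoglycan cleavage and chain breakdown, 11 rose and 5 fell in FeAAD (64.0%) and 9 rose and 3 fell in MaAAD (48.0%), with 3 higher and 1 lower in FeNonAD (16.0%). Tll1, a protease that processes small proteoglycans and procollagen, was higher by 2.07 and 2.05, and the aggrecanase Adamts4 by 1.91 in FeAAD, while Adamts9, which cleaves versican, was lower by -1.25 in FeAAD; heparanase, Hpse, was higher by 0.97 and the lysosomal glucuronidase Gusb by 0.80 in MaAAD.

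Among the 48 libraries, deviations from the group mean on the log2(CPM + 1) scale showed which members varied together. Of the 45 pairs, 19 had a Pearson r above 0.5 and 10 had an r below 0. The highest were Hspg2 with Cspg4 (0.872), Dcn with Fmod (0.815) and Dcn with Aspn (0.771), and the lowest was Vcan with Fmod (-0.427). These points share libraries and scaling, so r is given as a description. Without the 3 libraries with neutrophil markers (45 libraries), the same pairs had r of 0.818, 0.667, 0.638 and -0.289. Fewer pairs then had an r above 0.5, and some moved further: Fmod with Ogn went from 0.62 to 0.237, Fmod with Aspn from 0.609 to 0.347 and Prelp with Aspn from 0.527 to 0.186. Vcan went the other way, from 0.001 to 0.402 with Hspg2, from 0.036 to 0.324 with Aspn, from 0.019 to 0.293 with Cspg4 and from -0.123 to 0.241 with Ogn.

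**Figure D5:**
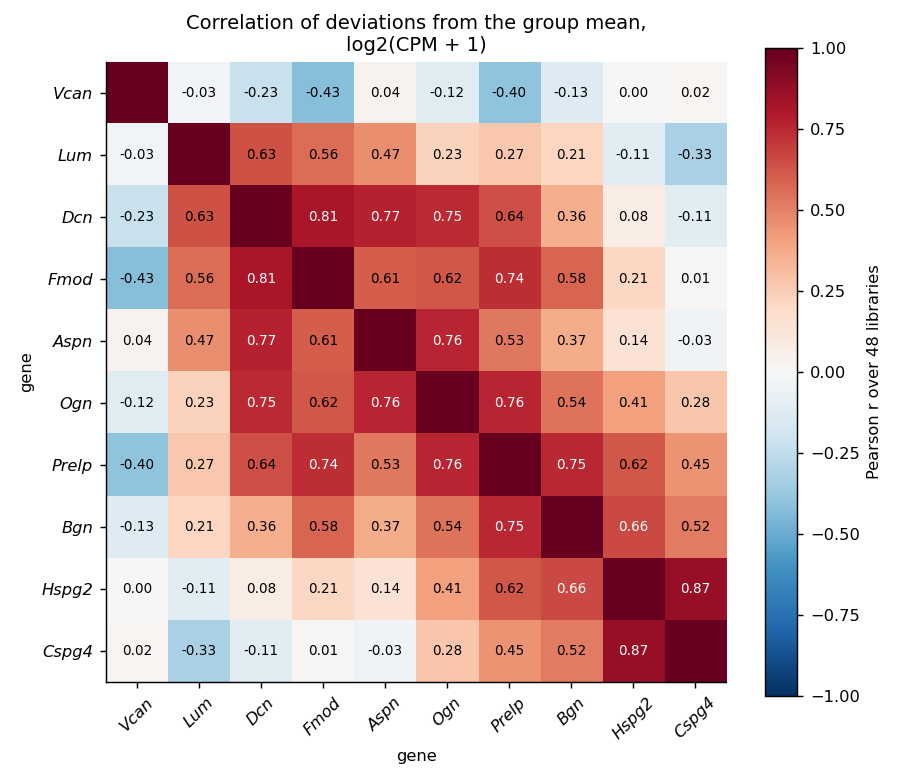
Pearson r over 48 libraries between the deviations of each pair of the 10 genes from their group means, in log2(CPM + 1); red is positive and blue negative. Hspg2 and Cspg4 form a pair at 0.872, Dcn, Fmod, Aspn, Ogn and Prelp have r of 0.527 to 0.815 among themselves, and Vcan lies near or below 0 with the others; without 3 libraries the lowest of the former is 0.186 and Vcan reaches 0.402 with Hspg2.

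The genes most like each member over the 48 libraries differed between members. Ogn was closest to Prrg3 (r = 0.919), Omd (0.917) and Ecm2 (0.905), the last 2 being its chromosomal neighbours. Lum was closest to the fibrillar collagen gene Col11a1 (0.833), Man1c1 (0.828) and Sdc3 (0.826). Fmod was closest to Cpxm2 (0.955), Itga11 (0.911) and Colec11 (0.902), Dcn to C1s1 (0.924), Dpt (0.916) and Cd34 (0.913), and Prelp to Timp2 (0.952), Ace (0.935) and Ltbp4 (0.928). Bgn was closest to the protease gene Htra1 (0.875), P3h3 (0.855) and Itgb5 (0.837), and Aspn to Arsk (0.791), Nid1 (0.789) and Dcn (0.771). Hspg2 was closest to Tln1 (0.938), Lamb2 (0.920) and the basement membrane collagen gene Col4a2 (0.918), Cspg4 to Jph2 (0.917), Mrvi1 (0.910) and Tln1 (0.901), and Vcan to Cand1 (0.785), Zmpste24 (0.774) and Copb2 (0.760). Over the other 45 libraries the order within these sets changed for some genes: Lum was closer to Sdc3 (0.874) than to Col11a1 (0.825), Ogn was closer to Ecm2 (0.823) than to Prrg3 (0.814), and Cspg4 was closer to Mrvi1 (0.904) than to Jph2 (0.897). The r of Aspn with its 3 genes was then 0.638 to 0.652.

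Calls in the remaining marker lists were as follows. All 6 tested neutrophil markers were higher in FeAAD and 5 of 6 in MaAAD. Of 8 B and T cell markers, 5 were higher in FeAAD (62.5%), 2 in MaAAD (25.0%), 3 in MaNonAD against MaCon (37.5%, where 0.624% of all genes were called) and 2 in MaCon against FeCon (25.0%). For the next 3 lists the shares stand beside 44.4% of all genes in FeAAD and 35.0% in MaAAD. Of 8 endothelial markers, 2 were higher and 1 lower in FeAAD (37.5%) and 3 higher in MaAAD (37.5%). Of 7 pericyte markers, 3 were lower in FeAAD (42.9%), and 1 was higher and 2 lower in MaAAD (42.9%). Of 7 Schwann cell markers, 1 was higher and 1 lower in FeAAD and 2 higher in MaAAD (28.6% in both). Heart muscle markers were lower for 5 and 1 of 8 (62.5% and 12.5%), mesothelial markers for 4 and 0 of 6 (66.7% and 0.0%), and adipocyte markers for 1 and 0 of 8 (12.5% and 0.0%), in FeAAD and MaAAD. Markers of each list were detected in every group, except Ly6g at 0 in FeNonAD and Matn1 at 0 in MaNonAD. Ranges of the fibroblast sum were 12359 to 18209.6 CPM in FeCon, 15469 to 28168 CPM in FeAAD, 12701 to 16013 CPM in MaCon and 15417 to 27647 CPM in MaAAD, and the part of these cells in the values of Lum and Ogn was not tested.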

How the data were processed

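Thoracic aortas of 48 mice were sequenced, with 1 strand-specific mRNA library per mouse. The deposited table holds expected counts per gene symbol for 18782 genes, and the submitters' processing notes name Bowtie 2, RSEM 1.3.1 and GRCm39; the gene annotation is not given in the sources used here. Library totals ran from 13548000 to 17281273, with a median of 15681340. The values, of which 4.99% were not whole, were rounded to whole counts. After a filter on low counts (filterByExpr, 14431 genes kept) and TMM scaling, 6 group means were fitted over all 48 libraries with the quasi-likelihood test of edgeR 4.0.16 in R 4.3.3, and p-values were adjusted over all tested genes by the Benjamini-Hochberg method. A gene was called at an adjusted p below 0.05 and was termed a DEG when its absolute log2 fold change was also at least 1. Ratios of paired genes within a library were compared by two-sided exact permutation tests, adjusted over 12 tests (scipy 1.17.1). DESeq2 1.42.0, total-count scaling, no filter, fits of the compared groups alone, a block for the replicate number and leave-one-out fits were the alternatives. For the ratios the block was an exact sign-flip test on the differences of same-numbered mice. The members and the gene lists were chosen with earlier results of these data known. Named genes were all members, up to 3 called genes with the largest change per other list in each AAD against Con comparison (mean of at least 10 counts), and the 3 genes most like each member; the chromosomal neighbours Kera and Hapln1 were named besides, after their values were seen. The scripts were tested on simulated data. The p-values measure the spread between mice. The paper states that each group was housed in several cages, with the sexes apart. The labels do not give the cage, so the tests treat mice that shared a cage as independent.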

Additional observations from a re-analysis of the deposited data

Results flagged for a closer look

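Of 72 groups of values (each member and both ratios in each group of 4 to 10 libraries), 4 held a library whose gap to its nearest neighbour was wide for the range of its group by Dixon's criterion; chance gives about 1 in 20. Lum stood at 782.3 CPM in library FeNonAD8, where the next highest FeNonAD value was 444.3 CPM. Fmod stood at 292.5 CPM in the same library, with the next value at 183.9 CPM. FeNonAD8 also had the lowest smooth muscle sum (26040 CPM) and the highest fibroblast (24441 CPM), macrophage (999 CPM) and chondrocyte (272 CPM) sums of its group, and their part was not tested. Hspg2 stood at 769.1 CPM in library FeAAD5, below the next lowest FeAAD value of 1852 CPM. The log2 ratio of Bgn to Dcn was 4.78 in library FeAAD9, where the next highest FeAAD ratio was 3.44. The neutrophil markers summed to 888 CPM in FeAAD5 and to 202 CPM in FeAAD9, and the part of this in both values was not tested. No member moved in opposite directions in every AAD mouse of the 2 sexes.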

How the results depend on the processing

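The calls of Lum and Ogn in both comparisons of AAD with Con held in every alternative fitted, with Lum between 0.96 and 1.24 (FeAAD) and between 1.48 and 1.70 (MaAAD) on the log2 scale, and Ogn between -1.04 and -0.68 (FeAAD) and between -1.17 and -0.91 (MaAAD). The number of called members was less stable elsewhere, and the cause was not tested. In FeNonAD against FeCon, 2 members were called when the fit held the compared groups alone (Lum 0.52, adjusted p = 0.0407, and Ogn -0.39, adjusted p = 0.0468, both by edgeR). Under the DEG rule the counts were 1 in FeAAD against FeCon, 0 in FeAAD against FeNonAD and 0 in MaCon against FeCon. The single call in FeAAD against FeNonAD went to 0 with total counts, without a filter, with the compared groups alone and with the replicate block, and ran from 0 to 2 when 1 library was left out. DESeq2 called 1 member in MaAAD against MaNonAD, and leave-one-out fits called 0 to 1. In MaCon against FeCon the count was 1 with total counts, 1 without a filter and 0 with the replicate block, 3 when the fit held the compared groups alone, and 0 to 2 in leave-one-out fits.

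Signs turned for members near 0. Hspg2 was 0.047 (FeAAD) and 0.029 (MaAAD) with total counts, and 0.074 (FeAAD) without the 3 libraries with neutrophil markers, where Aspn was 0.0071 (FeAAD). Leave-one-out fits took Hspg2 from -0.069 to 0.073 in FeAAD and from -0.085 to 0.069 in MaAAD, and Vcan from -0.22 to 0.0050 in FeAAD. Differences of medians turned the Bgn to Dcn ratio to -0.11 in MaAAD against MaCon and to -0.0072 in FeAAD against FeNonAD (-0.0031 with the replicate block), and the Fmod to Lum ratio to 0.13 in FeAAD against FeNonAD. The Fmod to Lum ratio in MaNonAD against MaCon ran from -0.72 to -0.31 in leave-one-out tests.

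Replicate numbers are shared across groups in the labels. Deviations of same-numbered mice had mean correlations between -0.066 and 0.16 over the 9 comparisons, and in none did every pair exceed 0.1, so the numbers were read as names. Besides the counts above, the block moved the Fmod to Lum ratio in MaAAD against MaCon to -1.35 (adjusted p = 0.125, exact sign-flip test on 7 same-numbered pairs). So few pairs set a floor on the p-value, so that test cannot decide whether the call depends on the block. The block also ended the calls of Vcan in MaAAD against MaCon (0.43, adjusted p = 0.0641) and of Vcan (adjusted p = 0.0558) and Aspn (adjusted p = 0.0567) in MaCon against FeCon (edgeR).

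The neutrophil leave-out, the length of the longest transcript and the leave-one-out tests of the ratios in MaAAD against MaCon were added after the data were seen.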
